A study of Mus musculus with 6 samples.

Results

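The complement and coagulation factors that hepatocytes make for the blood plasma were described through the raw counts of 45 listed genes, with the fibrinogen chains left out. All 45 had a row in the table of 25184 genes, and all 45 were among the 15105 genes that passed a filter on low counts (a mean normalized count above 5) and were tested. The cells were primary mouse hepatocytes, isolated by perfusion and density gradient and kept in culture overnight on collagen before RNA extraction. The samples fell into 2 genotypes of 3 libraries each. The control libraries came from Sucnr1 fl/fl mice, in which both copies of Sucnr1 (it encodes SUCNR1, a cell surface receptor for succinate) are flanked by loxP sites and no Cre is present. The Hep-Sucnr1 KO libraries came from mice with the same floxed alleles plus a Cre transgene under the albumin (Alb) promoter, so the presence of Cre and the loss of Sucnr1 cannot be told apart. Deletion by this Cre is limited to cells in which the albumin promoter is active. The study asked what the loss of the receptor changes in hepatocytes, and the comparison here asked whether it went with a change in the messenger RNA of these plasma proteins.

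Complement is a cascade of plasma proteins. Antibody-bound C1 or mannose-binding lectins with their serine proteases start it, C2, C4, C3 and factor B form the convertases, and C5 to C9 assemble into the membrane attack complex. Coagulation runs through serine proteases that end in thrombin, antithrombin and the protein C system restrain it, and plasmin dissolves the clot. Hepatocytes are the main source of most of these proteins, and the liver raises several complement proteins in the acute phase response to inflammation.

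Total counts lay between 30504248 and 38770694 per library, and the fewest counts of a member were 29, for Cfp in Hep-Sucnr1 KO replicate 3. The targeted gene Sucnr1 was at 6.71, 3.55 and 3.40 CPM (TMM-scaled counts relative to the library total) in control replicates 1, 2 and 3, against 2.66, 0.827 and 0.152 CPM in replicates 3, 4 and 5 of Hep-Sucnr1 KO (4.55 ± 1.87 against 1.21 ± 1.30 CPM, SD, n = 3, p = 0.1 in a two-sided exact permutation test, the smallest that 3 against 3 can give). The genotypes did not overlap for Sucnr1, although the library labelled Hep-Sucnr1 KO replicate 3 was close to the lowest control. The summed level of the hepatocyte identity genes (16 tested of 17 listed, among them Alb and Ttr) was 70890 to 92480 CPM in Sucnr1 fl/fl and 61250 to 94380 CPM in Hep-Sucnr1 KO. Sucnr1 fl/fl replicate 2 stood apart for the complement and coagulation genes: it was the lowest of the 6 libraries for 33 of the 45, with a median deviation of −0.21 on the log2 scale from the mean of the libraries, against −0.0097 over all genes. The size of this deviation depended on the scaling. With library size alone in place of the TMM factors it was −0.082, still the lowest of the 6 libraries. The counts and medians over the members that moved most without this library are given both ways.

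Of the 45 genes, 0 passed an FDR of 0.05 for genotype, beside 0% of all genes tested (edgeR quasi-likelihood test with extraction day as a covariate, every adjusted p at least 0.998). DESeq2 called 0 of the 45 at an adjusted p of 0.05, beside 0.0636% of the genes to which it gave one. The targeted gene Sucnr1, at a log2 fold change of −2.23, did not pass in edgeR either (adjusted p = 0.998). It passed in DESeq2 (adjusted p = 0.0328). At an unadjusted p of 0.05, 1 member was higher in Hep-Sucnr1 KO (C4bp), beside 1.91% of all genes, and 0 members were lower, beside 1.81%. With DESeq2, 4 members had an unadjusted p below 0.05, all higher in Hep-Sucnr1 KO (C4b, C4bp, C9 and Hc), beside 1.12% of all genes. A positive log2 fold change was found for 33 of 45 members (73.3%), beside 50.5% of all genes, with a median log2 fold change of 0.091 over the members and 0.003 over all genes. Without Sucnr1 fl/fl replicate 2 the number was 23 and the median 0.00092, so the lean of the whole set to positive values rested on that library. All 3 Hep-Sucnr1 KO libraries lay above all 3 controls for 8 members (C4b, C6, C9, C4bp, Cpb2, Masp2, Hc and C8b; 17.8%, beside 6.54% of all genes), and below them for 1 (Masp1; 2.22%, beside 4.04%). In bulk RNA, a change in the number of cells of a type and a change in RNA per cell cannot be told apart.

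The data set narrow limits for most members. The 95% interval of the log2 fold change had a median half-width of 0.333 over the 45 genes (range 0.279 to 1.41), beside 0.469 over all genes tested. The intervals are those of single genes, with no adjustment for the number of genes tested. For 34 of 45 the interval left out a 1.5-fold change in either direction, beside 6822 of the 15105 genes tested. For 43 of 45 it left out a log2 change of 1, beside 10577 of the 15105. The exceptions to the latter were Cfp and Plau, which were also the least abundant.

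**Figure D1:**
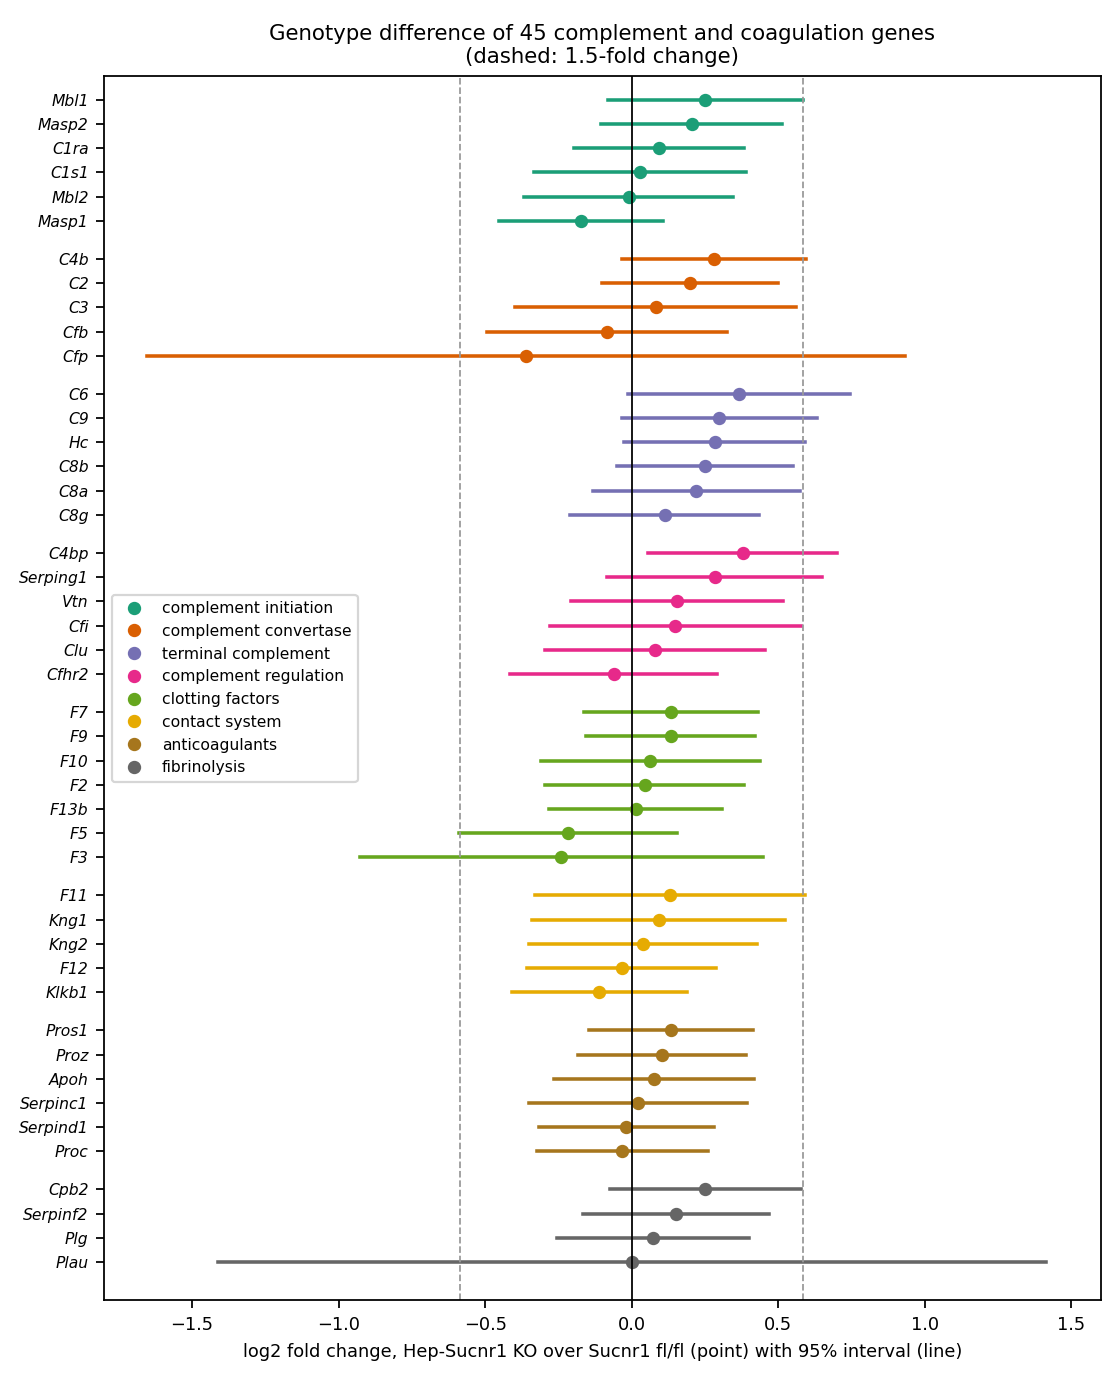
Log2 fold change of Hep-Sucnr1 KO over Sucnr1 fl/fl (horizontal axis) for each of the 45 genes, grouped and colored by role, with 95% intervals as lines and a 1.5-fold change as dashed lines. The interval of C4bp (0.056 to 0.70) is the only one that leaves out 0, and all 6 terminal complement genes lie to the right of 0.

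The bases before the transcription start are printed for the 3 members with the lowest unadjusted p, C4bp, C6 and Hc, so that the genes can be placed in the genome. The sequences are the 250 bases upstream of the start in RefSeq (GRCm38.p6), which held such a window for 34 of the 45 members. They run 5′ to 3′ on the strand of the gene, at chr1:130661619-130661868 (minus strand) for C4bp, chr15:4726960-4727209 (plus strand) for C6 and chr2:35061413-35061662 (minus strand) for Hc. Capitals mark a match to the HNF1 motif GTTAATNAT on either strand.
C4bp: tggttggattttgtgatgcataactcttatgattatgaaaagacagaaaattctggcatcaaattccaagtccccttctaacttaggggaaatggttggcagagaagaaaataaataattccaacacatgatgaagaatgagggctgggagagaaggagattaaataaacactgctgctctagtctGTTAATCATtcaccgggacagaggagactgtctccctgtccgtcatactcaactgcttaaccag
C6: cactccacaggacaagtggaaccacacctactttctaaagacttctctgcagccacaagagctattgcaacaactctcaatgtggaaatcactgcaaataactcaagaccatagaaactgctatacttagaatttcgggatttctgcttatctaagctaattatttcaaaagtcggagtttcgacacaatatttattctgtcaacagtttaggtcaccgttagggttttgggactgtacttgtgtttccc
Hc: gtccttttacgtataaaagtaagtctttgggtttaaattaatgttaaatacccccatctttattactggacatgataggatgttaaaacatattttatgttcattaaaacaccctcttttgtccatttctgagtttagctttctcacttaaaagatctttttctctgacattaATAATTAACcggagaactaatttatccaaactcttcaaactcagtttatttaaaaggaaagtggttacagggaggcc
The match began 64 bases before the start in C4bp and 77 bases before it in Hc, and C6 had none of the motifs searched in this window. HNF1 is a homeodomain factor of liver genes. Its motif was found upstream of 4 of 34 members (C4bp, Cfhr2, F13b and Hc, 11.8%), beside 0.866% of the 27025 genes with a window. Those 27025 genes were not limited to genes expressed in hepatocytes, so the shares do not compare the members with other liver genes. The C/EBP motif TTGCNNAAT was found upstream of 4 of 34 (C1s1, C3, C9 and F9; 11.8%), beside 2.45% of all. The STAT3 motif TTCCNGGAA was found upstream of Pros1 alone (2.94%, beside 1.09%), and neither the HNF4 motif CAAAGTCCA (0.451% of all genes) nor the NF-kB motif GGGNNTTCC (5.61% of all) occurred in a window of the members. Both strands were searched, and a match is a run of letters and not a site of binding. Of the 4 members with the HNF1 motif, C4bp and Hc had positive log2 fold changes (0.38 and 0.28), F13b was at 0.014 and Cfhr2 at −0.061.

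Levels between genes were compared as CPM per kilobase of exon (FPKM). C3, on which all complement pathways converge, was the most abundant member, at 1253 ± 178 FPKM in Sucnr1 fl/fl (SD, n = 3), which placed it at rank 66 of all genes. Vtn (vitronectin) followed at 828 ± 71.7 FPKM, Clu (clusterin) at 638 ± 32.6, Apoh (beta-2-glycoprotein I) at 579 ± 56.5, Plg (plasminogen) at 458 ± 46.5 and Kng1 (high molecular weight kininogen) at 433 ± 67.6 FPKM. F2 (prothrombin) was at 265 ± 27.0 FPKM and was the most abundant of the clotting factors. The lowest were Pros1 (6.58 ± 0.693 FPKM), Cfp (3.40 ± 2.77) and Plau (2.28 ± 0.924). Most neighbors in this order could not be separated: of 44 pairs of genes next to each other, the ranges over the 3 Sucnr1 fl/fl libraries overlapped for 35. The ranges did not overlap between C3 and Vtn, Vtn and Clu, Apoh and Plg, Kng1 and Serping1, C1ra and Kng2, C6 and Mbl1, Mbl1 and F9, F3 and Klkb1, or Masp1 and Cfb. Together the 45 genes took 2.87, 2.66 and 2.65% of the counts in control replicates 1, 2 and 3, against 2.98, 2.71 and 2.98% in replicates 3, 4 and 5 of Hep-Sucnr1 KO. The shares overlapped between genotypes (2.73 ± 0.12 against 2.89 ± 0.16%, SD, n = 3, p = 0.2 in a two-sided exact permutation test).

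**Figure D2:**
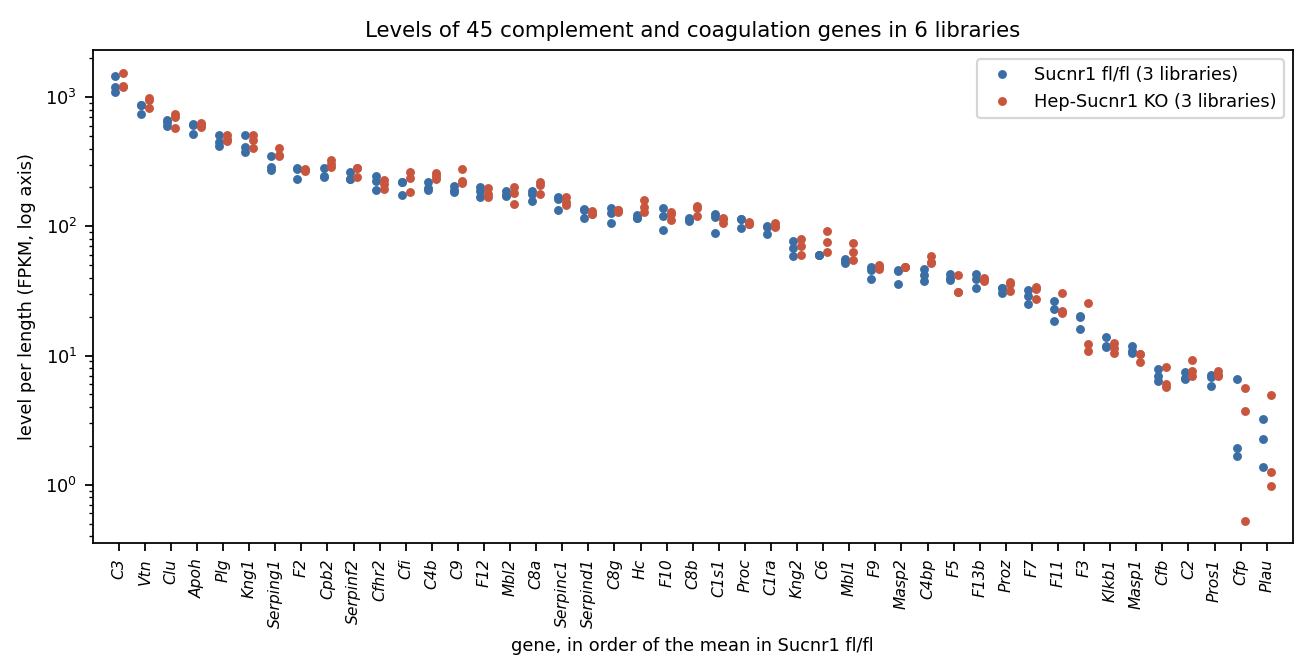
Level per length (FPKM, log axis) of the 45 genes in each of the 6 libraries, in order of the mean in Sucnr1 fl/fl, with blue points for Sucnr1 fl/fl and red points for Hep-Sucnr1 KO. The levels run from 1253 FPKM for C3 to 2.28 FPKM for Plau, and the spread between libraries is widest for Cfp and Plau.

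Terminal complement had the highest median log2 fold change of the 8 roles. They encode the parts of the membrane attack complex: Hc (C5), C6, the 3 chains of C8 (C8a, C8b and C8g) and C9. C7, which is also a part of the complex, was not analysed here. All 6 had a positive log2 fold change (beside 50.5% of all genes), with a median of 0.266 and a range of 0.11 to 0.36. For 4 of 6 all Hep-Sucnr1 KO libraries were above the controls (beside 6.54% of all genes), but 0 of 6 passed the test. The median was 0.26 with 6 of 6 positive without Sucnr1 fl/fl replicate 2, and 0.17 with 5 of 6 positive when the index series (Sucnr1 fl/fl replicates 1 and 2 against the other libraries) was a further term of the model. That term leaves Sucnr1 fl/fl replicate 3 as the only control in the index series of the Hep-Sucnr1 KO libraries.

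C6, which binds C5b in the membrane attack complex, was at 213, 212 and 214 CPM in control replicates 1 to 3, against 270, 326 and 226 CPM in replicates 3 to 5 of Hep-Sucnr1 KO. The controls were nearly alike and each Hep-Sucnr1 KO library was above them, with the widest gap in replicate 4. The fold was 1.29 (95% interval 0.990 to 1.67, adjusted p = 0.998 in edgeR, 0.0569 before adjustment). Without Hep-Sucnr1 KO replicate 4 the log2 fold change of C6 was 0.20 in place of 0.36.

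Hc, whose product C5 is cleaved to start the membrane attack complex, was at 766, 724 and 722 CPM in the controls and at 999.6, 813 and 884 CPM in Hep-Sucnr1 KO. Again the genotypes did not overlap, at a fold of 1.22 (95% interval 0.982 to 1.51). C9, which forms the pore, was at 489, 472 and 525 CPM against 708, 575 and 556 CPM, a fold of 1.23, with Hep-Sucnr1 KO replicate 3 well above the rest. Without that library its log2 fold change was 0.17 in place of 0.30.

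C8b was at 288, 280.5 and 296 CPM in the controls and at 355, 366 and 308 CPM in Hep-Sucnr1 KO, with no overlap (fold 1.19, 0.965 to 1.46). C8a, its neighbor on chromosome 4 at a distance of 11.1 kb, overlapped between genotypes, at 634 ± 59.8 against 737 ± 82.2 CPM. C8g, the lipocalin chain of C8, had the smallest difference of the 6. It was at 188, 158 and 206 CPM against 194, 202 and 201 CPM, and its log2 fold change of 0.11 was 0.00092 without Sucnr1 fl/fl replicate 2.

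**Figure D3:**
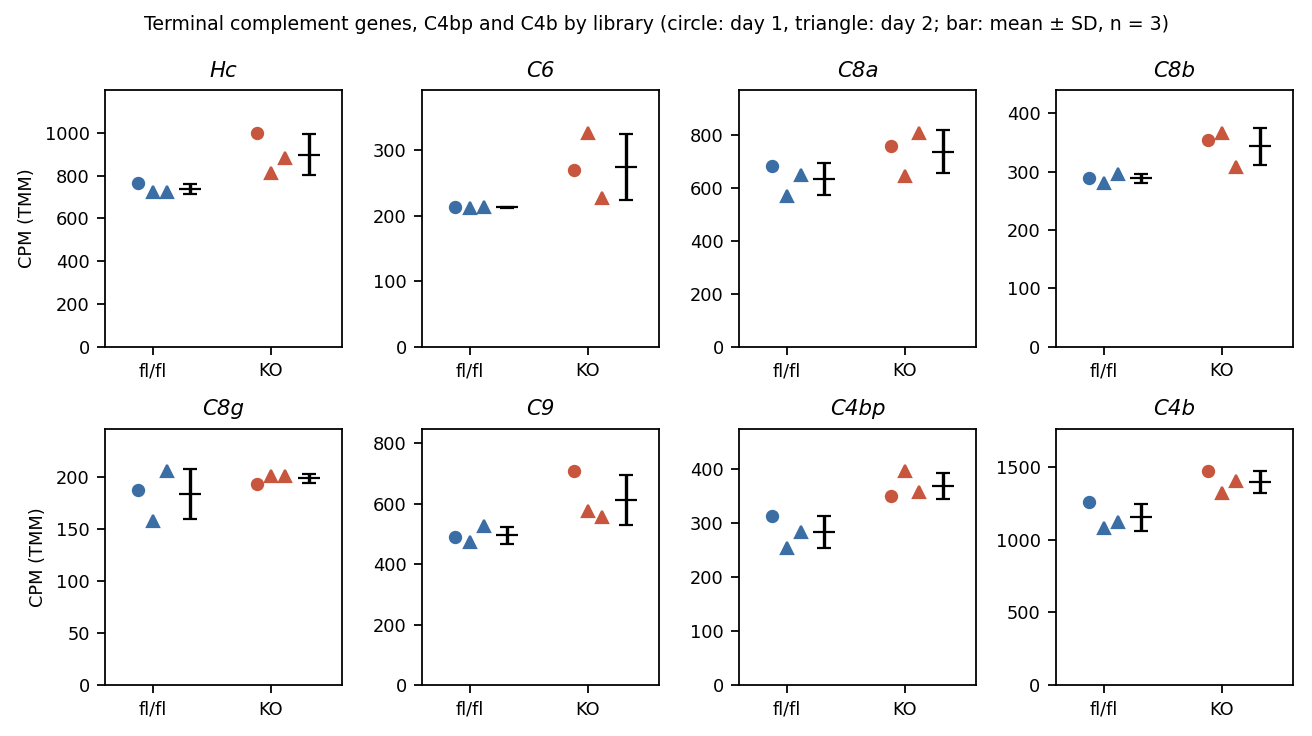
CPM of the 6 terminal complement genes, C4bp and C4b in each library (circles for extraction day 1, triangles for day 2), with the mean and SD of the 3 libraries of a genotype as a bar; each vertical axis starts at 0. Hep-Sucnr1 KO lies above Sucnr1 fl/fl without overlap for Hc, C6, C8b, C9, C4bp and C4b, and the genotypes overlap for C8a and C8g.

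Of the complement regulators, C4bp had the lowest unadjusted p of all 45 genes. C4bp encodes the alpha chain of C4b-binding protein, a cofactor that inactivates C4b. It was at 313, 254 and 283 CPM in Sucnr1 fl/fl and at 350.1, 395 and 358 CPM in Hep-Sucnr1 KO, so that all 3 Hep-Sucnr1 KO libraries were above the controls. The fold was 1.30 (95% interval 1.04 to 1.63, adjusted p = 0.998 in edgeR, 0.0277 before adjustment). Its log2 fold change lay between 0.30 and 0.49 with each library left out in turn, and was 0.16 between the day 1 libraries and 0.49 between those of day 2.

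The other regulators were Serping1 (C1 inhibitor), Vtn, Cfi (factor I), Clu and Cfhr2 (a protein related to factor H), and the genotypes overlapped for each. Serping1 was at a log2 fold change of 0.28 (SE 0.15; 0.18 without Sucnr1 fl/fl replicate 2), from 709 ± 98.9 to 862 ± 62.1 CPM. Vtn, which hinders membrane insertion of the complex, was at 1764, 1512 and 1765 CPM against 1940, 1686 and 1982 CPM, a log2 fold change of 0.15 (SE 0.15; 0.082 without Hep-Sucnr1 KO replicate 5). Cfi was at a log2 fold change of 0.15 and Clu at 0.079, and at −0.017 and 0.010 without Hep-Sucnr1 KO replicate 5. Cfhr2 was the only regulator with a negative value (−0.061), at 437, 368 and 474.5 CPM against 377, 411 and 440 CPM, and sequence shared with the other factor H family genes makes its count uncertain. Over the 6 regulators the median log2 fold change was 0.15 with 5 positive, and 0.072 with 5 positive when Sucnr1 fl/fl replicate 2 was left out.

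Among the convertase genes, C4b was the member with the genotypes apart. C4b (complement C4) was at 1255, 1081 and 1119 CPM in the controls and at 1469, 1322 and 1401 CPM in Hep-Sucnr1 KO, a fold of 1.21 (95% interval 0.976 to 1.51). Its near-identical copy C4a could share reads with it, and the value of C4b is uncertain to that extent; C4a was at 78.9 ± 7.81 against 87.9 ± 4.43 CPM. C3 was at 7452, 5667 and 6213 CPM against 6119, 6290 and 7973 CPM. For C3 the libraries of both genotypes were interleaved, at a log2 fold change of 0.081 with a 95% interval of −0.40 to 0.56.

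C2 and Cfb (factor B), which provide the proteases of the classical and alternative convertases, were at 26.8 ± 1.90 against 30.9 ± 4.58 and at 19.9 ± 2.13 against 18.8 ± 3.70 CPM. Both genes lie on chromosome 17 next to each other, and share 42.8% (C2) and 79.5% (Cfb) of their exon bases with a read-through gene model, Gm20547, that had 0 or 1 counts per library. Klkb1 shares 43.2% with Gm45753 in the same way. The counts of these 3 genes may be too low if read pairs that match several genes were dropped, which the sources used here do not state.

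Cfp (properdin, which stabilizes the alternative convertase) was the most variable of the 45 genes, at 2.91, 3.34 and 11.4 CPM in Sucnr1 fl/fl and at 0.918, 9.72 and 6.44 CPM in Hep-Sucnr1 KO. It varied with extraction day more than with genotype: both day 1 libraries were below all 4 libraries of day 2. The log2 difference of day 2 minus day 1 was 2.08 (SE 0.63, adjusted p = 0.541 in edgeR, 0.014 before adjustment, and adjusted p = 0.0157 in DESeq2). The summed level of 12 Kupffer cell markers (12 of 12 tested, none at 0) was 90.3, 63.9 and 210 CPM in Sucnr1 fl/fl and 39.4, 165 and 141 CPM in Hep-Sucnr1 KO. The 3 libraries with the highest Cfp were those with the highest marker sum, in the same order, and the library with the lowest Cfp had the lowest sum; their part in the level of Cfp was not tested.

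The genes that start the lectin and classical pathways gave no common direction (4 of 6 positive, median 0.060, or 3 of 6 and −0.0030 without Sucnr1 fl/fl replicate 2). Mbl1, a mannose-binding lectin, was at 84.5, 81.9 and 87.1 CPM against 99.2, 117 and 85.6 CPM, a log2 fold change of 0.25 (SE 0.14) that was 0.11 without Hep-Sucnr1 KO replicate 4. Mbl2, its more abundant relative, was at 187, 189 and 205.5 CPM against 197, 161 and 221 CPM, a log2 fold change of −0.0098. The proteases of these lectins were at opposite signs. Masp2 was at 151, 119 and 150.0 CPM in the controls and at 161 CPM in each Hep-Sucnr1 KO library, a small gap to the nearest control; its log2 fold change of 0.20 was 0.098 without Sucnr1 fl/fl replicate 2. Masp1 was at 107.5, 116 and 103 CPM against 101, 101 and 87.4 CPM, the only member for which all Hep-Sucnr1 KO libraries were below the controls (log2 fold change −0.17, SE 0.12). C1ra and C1s1, the proteases of C1, were at 285 ± 20.4 against 304 ± 9.63 and at 345 ± 59.0 against 350.1 ± 14.2 CPM.

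The coagulation genes lay closer to 0 than the complement genes: 15 of 22 were positive with a median log2 fold change of 0.053, beside 18 of 23 and 0.154 for complement, and this difference was not tested. Without Sucnr1 fl/fl replicate 2, 7 of 22 coagulation genes were positive (median −0.050) and 16 of 23 complement genes (median 0.090). Of the 7 clotting factors, F2 was at 1284, 1076 and 1297 CPM in the controls and at 1282, 1223 and 1261 CPM in Hep-Sucnr1 KO, which puts Sucnr1 fl/fl replicate 2 alone below the others. The log2 fold change of F2 was 0.043 (95% interval −0.30 to 0.38). F7, which with tissue factor starts the extrinsic pathway, was at 59.6, 46.6 and 53.7 CPM against 61.2, 51.1 and 62.7 CPM (log2 fold change 0.13, SE 0.13; 0.031 without Hep-Sucnr1 KO replicate 5). F9, F10 and F13b were at log2 fold changes of 0.13, 0.063 and 0.014, and at 0.052, −0.065 and −0.083 without Sucnr1 fl/fl replicate 2. F5, the cofactor of the prothrombinase, was at −0.22 (SE 0.16).

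F3 (tissue factor), the cell surface receptor of factor VII, ranged more widely than the plasma factors, at 40.9, 50.4 and 51.6 CPM against 30.8, 27.2 and 64.4 CPM. Hep-Sucnr1 KO held both the lowest libraries and the highest one. Its log2 fold change was −0.24 (95% interval −0.93 to 0.45), and −0.69 without Hep-Sucnr1 KO replicate 5.

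The vitamin K dependent proteins, whose glutamate residues are carboxylated in the liver, cut across these roles (F2, F7, F9, F10, Proc, Pros1 and Proz). Positive values were found for 6 of 7, with a median of 0.10, and 0 of 7 had an unadjusted p below 0.05. Without Sucnr1 fl/fl replicate 2, 4 of 7 were positive, with a median of 0.040. F7, F10 and Proz lie within 1 cluster on chromosome 8, with gaps of at most 4.24 kb, and their log2 fold changes were 0.13, 0.063 and 0.10.

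The contact system genes had a median log2 fold change of 0.039, with 3 of 5 positive, and −0.063 with 0 of 5 positive when Sucnr1 fl/fl replicate 2 was left out. F11 was at 58.7, 41.2 and 51.8 CPM against 47.9, 68.2 and 49.8 CPM (log2 fold change 0.13, SE 0.19). Its neighbor Klkb1 (plasma prekallikrein) was at 62.5, 60.7 and 72.7 CPM against 60.6, 65.9 and 55.0 CPM (−0.11, SE 0.13). Kng1 was at 1333, 1232 and 1653 CPM against 1514, 1307 and 1668 CPM, and its paralog Kng2, 28.4 kb away on chromosome 16, at 184, 161.5 and 212 CPM against 192, 163 and 217 CPM. In both kininogen genes the order of the libraries was the same, and the genotypes overlapped. F12 was at 364 ± 32.5 against 356 ± 27.9 CPM.

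The anticoagulants had the lowest median coefficient of variation of the 8 roles (7.34%, range 5.99 to 9.04% over the 6 libraries). Serpinc1 (antithrombin) was at 1327 ± 163 against 1343 ± 97.9 CPM and Serpind1 (heparin cofactor II) at 282 ± 25.2 against 278 ± 7.50 CPM. Proc (protein C) was at 283, 240.2 and 284 CPM against 267.5, 260.5 and 261 CPM, with a 95% interval of the log2 fold change of −0.33 to 0.26. Its cofactor Pros1 (protein S) was at 23.7, 29.1 and 27.9 CPM against 30.8, 28.4 and 29.1 CPM (log2 fold change 0.13, SE 0.12; 0.0035 without Hep-Sucnr1 KO replicate 3). Apoh was at 965, 820.3 and 985 CPM against 937, 1014 and 970.3 CPM, and Proz at 180.1 ± 9.33 against 194 ± 16.3 CPM. For all 6 the 95% interval left out a 1.5-fold change, beside 6822 of the 15105 genes tested.

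In fibrinolysis, Cpb2 was the only member with the genotypes apart. Cpb2 (the thrombin-activatable fibrinolysis inhibitor) was at 398, 392 and 464.5 CPM against 530.5, 491 and 472 CPM, a fold of 1.19 (95% interval 0.950 to 1.49), with Hep-Sucnr1 KO replicate 5 just above the highest control. Its log2 fold change of 0.25 was 0.16 without Hep-Sucnr1 KO replicate 3. Plg was at 1883, 1541 and 1675 CPM against 1903, 1703 and 1745 CPM (log2 fold change 0.072, SE 0.14) and Serpinf2 (alpha-2-antiplasmin) at 564 ± 39.8 against 626 ± 61.2 CPM. Plau (urokinase) was at 7.62, 3.25 and 5.34 CPM against 2.31, 2.95 and 11.8 CPM. The lowest and the highest library were both Hep-Sucnr1 KO, and the 95% interval of its log2 fold change, −1.41 to 1.41, allows a change in either direction.

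Sucnr1 fl/fl replicate 2 and Hep-Sucnr1 KO replicate 5 set much of the pattern over the 45 genes. The coefficient of variation over the 6 libraries had a median of 11.4% over the members and 17.2% over all genes. Cfp, F3 and Plau had the highest values, at 71.5, 31.65 and 65.4%. Without them it ran from 5.96 to 18.9%, with a median of 10.9%. The 5000 genes tested in the same range of mean CPM had a median of 11.2% and a range of 1.41 to 117%. None of those was left out for its spread, so the 2 ranges cannot be compared. Hep-Sucnr1 KO replicate 5 was the highest library for 15 of 45 members, and without it the median log2 fold change was 0.031 with 25 of 45 positive. The median deviation of the complement members from the 6-library mean was −0.017, −0.21 and 0.0016 in control replicates 1 to 3, against 0.10, 0.049 and 0.12 in replicates 3 to 5 of Hep-Sucnr1 KO. For the coagulation members it was 0.049, −0.20 and 0.055 against 0.0029, −0.028 and 0.063. These are medians over the listed genes: 5 of the 23 complement members had negative log2 fold changes, and for the other complement genes tested the medians of the genotypes overlapped (−0.0058, −0.25 and 0.061 against −0.15, 0.27 and 0.11).

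**Figure D4:**
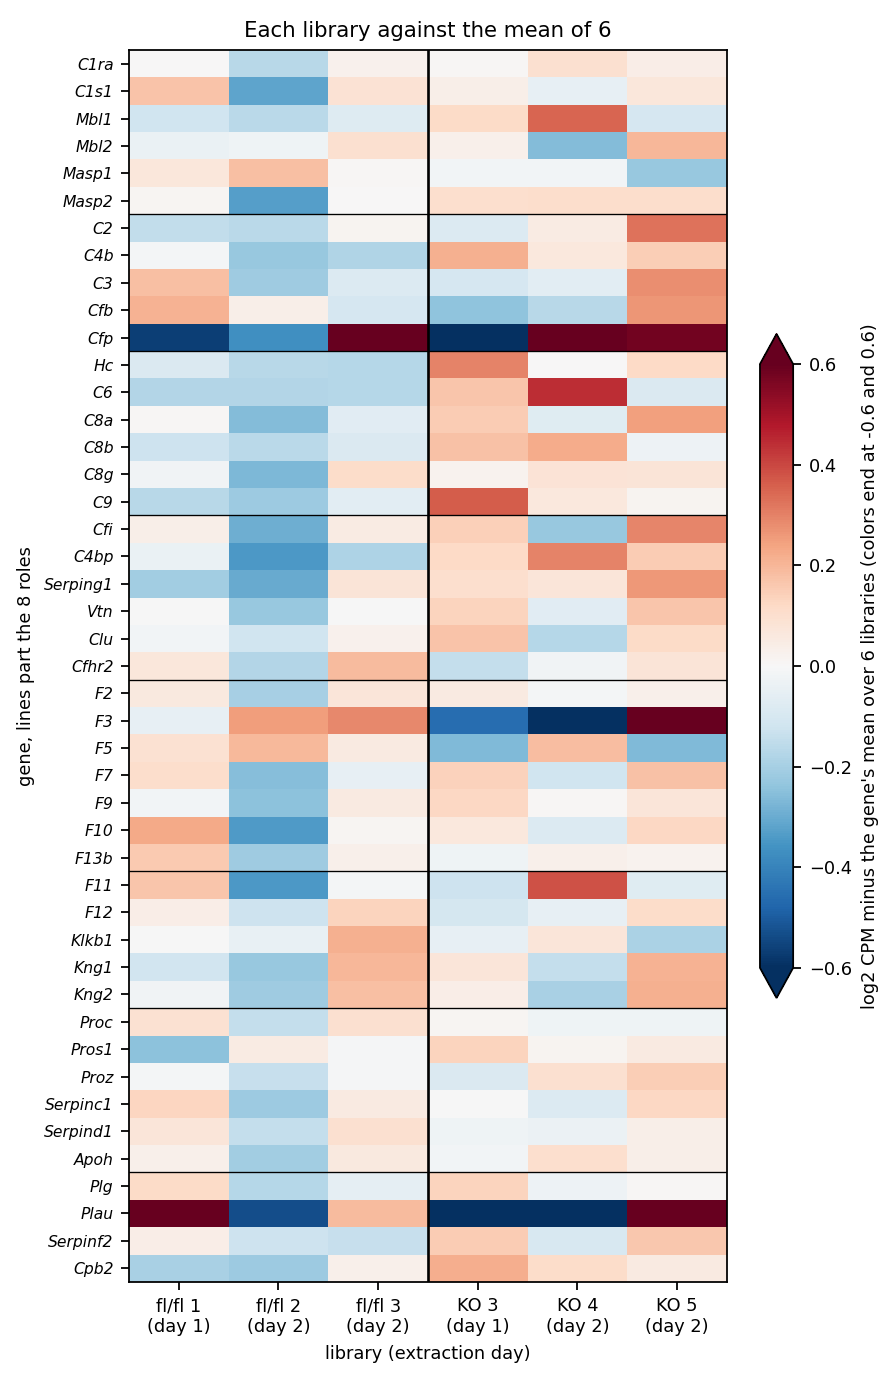
Log2 CPM of each of the 45 genes (rows) in each library (columns) minus the mean of the gene over the 6 libraries; the color scale ends at −0.6 and 0.6. Sucnr1 fl/fl replicate 2 is blue in most rows, and the terminal complement rows are mostly blue in Sucnr1 fl/fl and red in Hep-Sucnr1 KO.

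**Figure D5:**
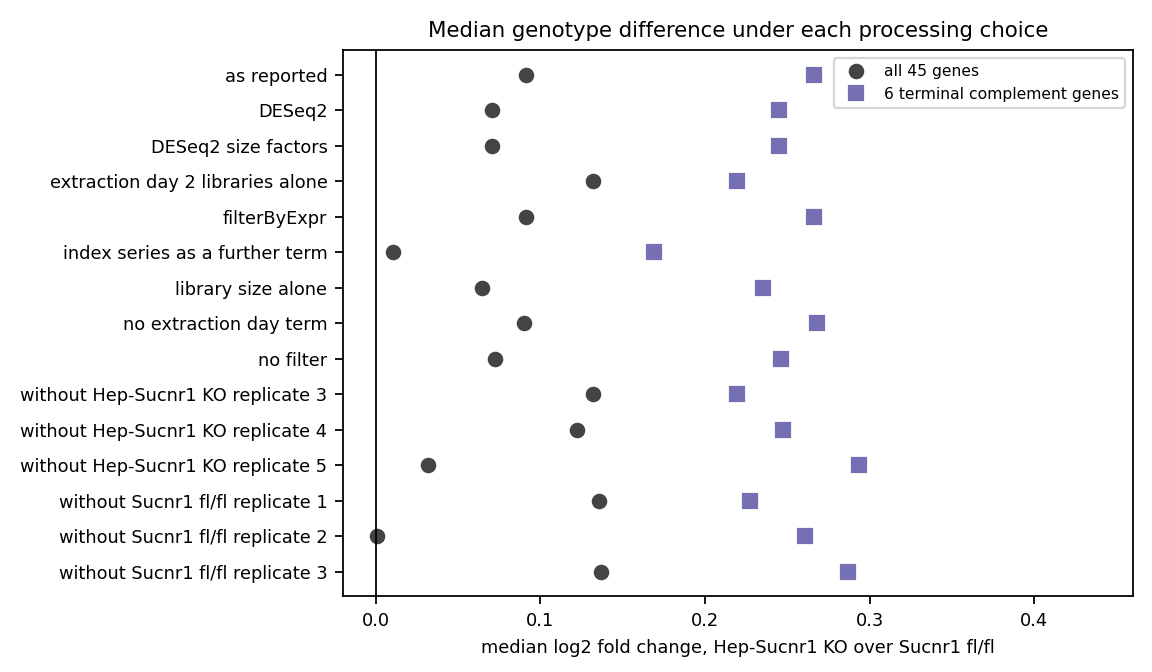
Median log2 fold change (horizontal axis) of all 45 genes and of the 6 terminal complement genes with each processing choice and with each library left out. The median of the 45 genes runs from 0.00092 without Sucnr1 fl/fl replicate 2 to 0.14, and that of the terminal complement genes from 0.17 to 0.29.

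Both genotypes were extracted on both days, with 1 library of each on day 1 and 2 of each on day 2. Between the days, 0 of 45 members passed an FDR of 0.05 (beside 0% of all genes) and 1 of 45, Cfp, had an unadjusted p below 0.05 (beside 7.49%). Cfp was also the single member that DESeq2 called between the days, beside 1.61% of the genes with an adjusted p. In the test of whether the genotype difference itself varied with the day, 0 of 45 had an unadjusted p below 0.05 (beside 3.69%) and 0 passed the FDR (beside 0%). Within day 1 the median log2 ratio of Hep-Sucnr1 KO to Sucnr1 fl/fl was 0.036 with 25 of 45 positive, and within day 2 it was 0.14 with 39 of 45 positive, where Sucnr1 fl/fl replicate 2 is 1 of the 2 controls. The 6 terminal complement genes were positive on both days, with medians of 0.32 and 0.23.

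Other genes of these systems, listed by pathway, showed no common direction. Of 36 further complement genes, 30 were tested, 15 were positive and 0 had an unadjusted p below 0.05; the smallest p values were those of Cd93 (0.121, log2 fold change −0.54) and Cd55 (0.128, −0.61). Of 34 further coagulation and fibrinolysis genes, 30 were tested and 17 were positive. An unadjusted p below 0.05 was found for 3 that were higher (beside 1.91% of all genes) and 1 that was lower (beside 1.81%). Of the 3 higher genes, F13a1 and A2m were barely detected, at means of 0.184 and 0.464 CPM in Sucnr1 fl/fl. The smallest p values were those of Thbd (thrombomodulin), at a log2 fold change of −0.81 (SE 0.27), and Tfpi2, at 0.52 (SE 0.20). In the acute phase list, which shares no gene with the 45, all 21 genes were positive (beside 50.5% of all genes), with a median log2 fold change of 0.42. Of these, 11 were higher at an unadjusted p below 0.05 (beside 1.91% of all genes) and 9 were higher without overlap (beside 6.54%). In edgeR 0 passed the FDR (beside 0%). DESeq2 gave 2 an adjusted p below 0.05 (beside 0.0636% of the genes with an adjusted p). The summed CPM of that list was 23900, 22020 and 25400 in Sucnr1 fl/fl and 32900, 29080 and 32260 in Hep-Sucnr1 KO. Fgl1, a fibrinogen-like protein secreted by hepatocytes, passed in DESeq2 and not in edgeR (adjusted p = 0.0123 and 0.998), from 138, 214 and 187 CPM to 487, 340 and 350.5 CPM. Lbp, the lipopolysaccharide-binding protein, did likewise (adjusted p = 0.0183 in DESeq2 and 0.998 in edgeR), from 87.3, 94.0 and 116 CPM to 137, 162 and 173 CPM. Their log2 fold changes, 1.12 and 0.67, were above that of each of the 45 genes (at most 0.38). The acute phase sum was higher in each Hep-Sucnr1 KO library than in each control. The same held for C4bp, C6, Hc, C8b and C9, which are named because their genotypes did not overlap. That match is fixed by the choice of these genes and says nothing further, and C8a and C8g overlapped between genotypes. A part of the acute phase genes in the values of these members was not tested.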

How the data were processed

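Stranded mRNA libraries of 6 primary hepatocyte cultures were sequenced. The authors trimmed reads (Trim Galore 0.6.7), aligned them to GRCm38 (STAR 2.7.10a), counted read pairs per gene on the gene's strand with featureCounts (Ensembl annotation) and deposited raw counts in 1 table; the handling of pairs that match several genes is not given in the sources used here. Genotype and replicate number came from the labels, and extraction day is the label's own. The labels name no sex or age, and p-values measure the spread between these libraries.

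CPM used TMM factors, and FPKM divided CPM by the union of exons (GENCODE M21). Genes with a mean DESeq2-normalized count above 5 were tested with edgeR 4.0.16 (R 4.3.3; quasi-likelihood test, extraction day plus genotype, Benjamini-Hochberg over all genes, FDR 0.05). DESeq2 1.42.0 was the alternative, and others changed the scaling, filter, covariates and libraries. The edgeR and DESeq2 steps were tested on simulated data. Intervals are 95%. The members, lists and rules were chosen with earlier results of these data known. Named in full were, per role, the members with the highest and lowest log2 fold change and the highest level, members with an unadjusted p below 0.05 and members whose genotypes did not overlap; of each list the 2 smallest p values. The other marker lists held sinusoidal endothelial, stellate, bile duct, neutrophil, platelet and erythroid genes.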

Additional observations from a re-analysis of the deposited data

How the results depend on the processing

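No member passed an adjusted p of 0.05 for genotype in edgeR or DESeq2 under any alternative run; the smallest adjusted p of the 27 members named in full was 0.661 in an edgeR alternative and 0.9998 in DESeq2. DESeq2 called 7 genes of the whole table for genotype in place of 0, and 225 for extraction day in place of 0, 1 of them a member; without the filter on low counts edgeR called 122 genes for extraction day. The number of members with an unadjusted p below 0.05 for genotype was 1, and it was 4 with DESeq2, 0 with the index series (Sucnr1 fl/fl replicates 1 and 2 against the other libraries) as a further term, 2 without the day term and 2 without the filter. With 1 library left out it ranged from 0 (without Sucnr1 fl/fl replicate 3) to 4 (without Hep-Sucnr1 KO replicate 5), and the genes called for day from 0 to 29 (without Sucnr1 fl/fl replicate 2). With the index series term the members had a median log2 fold change of 0.011 (23 positive) and the terminal complement genes a median of 0.17 (5 of 6 positive). Sucnr1 fl/fl replicate 3 is then the only control in the index series of the Hep-Sucnr1 KO libraries. Leaving out C2, Cfb and Klkb1, a choice made after seeing the data as were the alternatives for terminal complement, left 32 of 42 members positive.

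Of the 27 members named in full, 20 kept their sign in all 8 other alternatives and 16 with each library left out. With the day 2 libraries alone the log2 fold change was 0.13 for Cfp, 0.0069 for Cfhr2 and 0.77 for Plau; with the index series term it was −0.073 for C8g, −0.092 for F2, −0.16 for Kng1, −0.034 for Apoh and 0.14 for Plau; without the day term it was 0.070 for Plau. With 1 library left out it ranged from −0.14 to 0.12 for Mbl2, −0.91 to 0.13 for Cfp, −0.073 to 0.26 for C3, −0.18 to 0.027 for Cfhr2, −0.69 to 0.026 for F3, −0.037 to 0.12 for F2, −0.068 to 0.34 for F11, −0.0093 to 0.23 for Kng1, −0.11 to 0.031 for Proc, −0.013 to 0.14 for Apoh and −1.03 to 0.78 for Plau. The causes were not tested. The labels name no pairs of libraries across the genotypes, so no paired analysis was made. With 3 libraries per genotype, differences under about the median half-width of 0.333 on the log2 scale could not be told from no change in a typical single interval. Larger differences could still fail the FDR. Fgl1 and Lbp did so in edgeR at log2 fold changes of 1.12 and 0.67.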

Other observations

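Sinusoidal endothelial markers summed to 65.9 to 117 CPM in Sucnr1 fl/fl and 42.9 to 75.7 CPM in Hep-Sucnr1 KO (1 of 10 positive), and stellate cell markers to 9.60 to 34.0 and 7.89 to 14.1 CPM (2 of 7 tested positive). Bile duct markers summed to 350.4 to 513 and 426.5 to 651 CPM (3 of 6 positive), neutrophil markers to 0.962 to 5.87 and 1.11 to 6.68 CPM (4 of 4 positive), platelet markers to 3.93 to 4.33 and 3.10 to 4.40 CPM (1 of 2 positive) and erythroid genes to 73.6 to 115 and 86.8 to 115 CPM (1 of 5 positive). Spp1 and Sox9 made up most of the bile duct sum, at means of 335.5 and 103.7 CPM in Sucnr1 fl/fl. The other bile duct markers were at 0.193 to 1.63 CPM there. Alas2 made up most of the erythroid sum, at 86.2 CPM in Sucnr1 fl/fl, beside 1.30 to 2.53 CPM for the globin genes. The Kupffer cell markers, named beside Cfp, were negative for 12 of 12 at a median log2 fold change of −0.40, with 0 of 12 at an unadjusted p below 0.05. Their sign differed between the days. The median log2 ratio of Hep-Sucnr1 KO to Sucnr1 fl/fl was −2.13 within day 1 (0 of 12 positive) and 0.17 within day 2 (10 of 12 positive). For sinusoidal endothelial, stellate and erythroid genes it was −1.38, −1.52 and −1.88 on day 1, and 0.23, 0.17 and 0.44 on day 2. Day 1 held 1 library of each genotype. Of the hepatocyte identity genes, 7 of 16 were positive, at a median of −0.080. For extraction day the Kupffer markers had a median log2 difference of 2.06 (11 of 12 higher on day 2).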
